A study of Mus musculus with 29 samples.

Results

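The 6 libraries described here came from mouse digits that were nerve-injured but not amputated, 3 taken at day 7 and 3 at day 14, out of 29 libraries in the whole series. They were chosen by their labels alone. The study asked how digit tip regeneration proceeds when sensory nerve input is removed, and it sequenced poly(A) RNA from digits in bulk. Every animal of the set used here had spared nerve injury (SNI), a surgery that cuts the tibial and the common peroneal branch of the sciatic nerve in the left leg and, by its usual design, leaves the sural branch. The unamputated animals are labelled as having that surgery without amputation. In the amputated animals of the same table (3 libraries at day 7, 3 at day 14) the digit tip was removed through the third phalanx 5 days after the nerve surgery. Tissue beyond the metacarpophalangeal joint was taken and the nail was removed.

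The labels of the unamputated libraries give their time in days post amputation and call the tissue a regenerate, while the treatment label says that no amputation was made. The treatment label was followed, and day 7 and day 14 are used below as the labels print them. Strain, age and sex are not among the labels used here. No unamputated sham or uninjured digits are in this table, so that time after injury, the age of the animal and any difference between collection days cannot be told apart. The labels call the libraries biological replicates, each from an SNI animal. All of these samples are bulk tissue, in which more cells of a type and more RNA per cell cannot be told apart.

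Hair and nail are built from hard keratins, which form filaments in the hair shaft and nail plate, and from keratin-associated proteins (Krtap genes), which crosslink those filaments into a rigid matrix. Both are made in a short zone of the follicle or nail matrix as cells stop dividing and harden. Around the growing shaft, the inner root sheath makes its own set of keratins together with trichohyalin, and follicles pass through phases of growth, regression and rest. Mature Schwann cells wrap axons in myelin, and after a nerve is cut they break the myelin down and switch on a repair response.

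Between day 7 and day 14 a narrow set of genes rose in the nerve-injured, unamputated digits, most of them structural genes of hair and nail or their neighbours. Of 17475 genes tested, 53 were called higher at day 14 (0.303% of genes tested) and 0 were called lower (0%), at an adjusted p under 0.05 by the quasi-likelihood test of edgeR with Benjamini-Hochberg adjustment. Of the 53, 7 were Krtap genes, 3 were keratins (Krt82, Krt32 and Krt40), 27 were predicted gene models that lie next to Krtap genes, 3 were other models, and 13 were other genes with a name. The rises were between 1.97-fold and 4.55-fold, with a median of 3.45-fold. In every one of the 53 the 3 day 14 libraries lay above the 3 day 7 libraries, a pattern seen in 5.59% of all genes tested. The calls were made on these same libraries, so this separation is no further evidence for them.

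These calls were close to the threshold, with adjusted p values between 0.0231 and 0.0499. The count of calls fell to 0 when any of 4 unamputated libraries was left out (day 14 replicate 1, day 14 replicate 3, day 7 replicate 1 or day 7 replicate 2), and it was 27 without day 7 replicate 3 and 64 without day 14 replicate 2. It was also 0 without amputated day 14 replicate 2 or amputated day 7 replicate 3, which are in neither group compared but enter the filter and the shared estimate of the spread, and 7 and 8 without amputated day 7 replicates 1 and 2. In every one of these fits all 53 genes kept a positive fold change and an unadjusted p under 0.05, and their median log2 fold change was between 1.60 and 1.97. The 53 were picked from these same libraries and their groups did not overlap. Leaving out 1 library could therefore hardly turn their sign, and the kept sign is no further evidence. An unadjusted p under 0.05 was found for 869 genes (4.97%), of which 306 had a negative value (1.75%), and DESeq2 called 12 genes lower and 137 higher. The fall with the smallest p was that of Rab6b, a small GTPase of vesicle traffic, at 10.5 ± 0.428 CPM (counts scaled to a common library size) at day 14 and 15.8 ± 2.34 at day 7 (SD, n = 3 each), with an adjusted p of 0.0677 by edgeR.

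**Figure D1:**
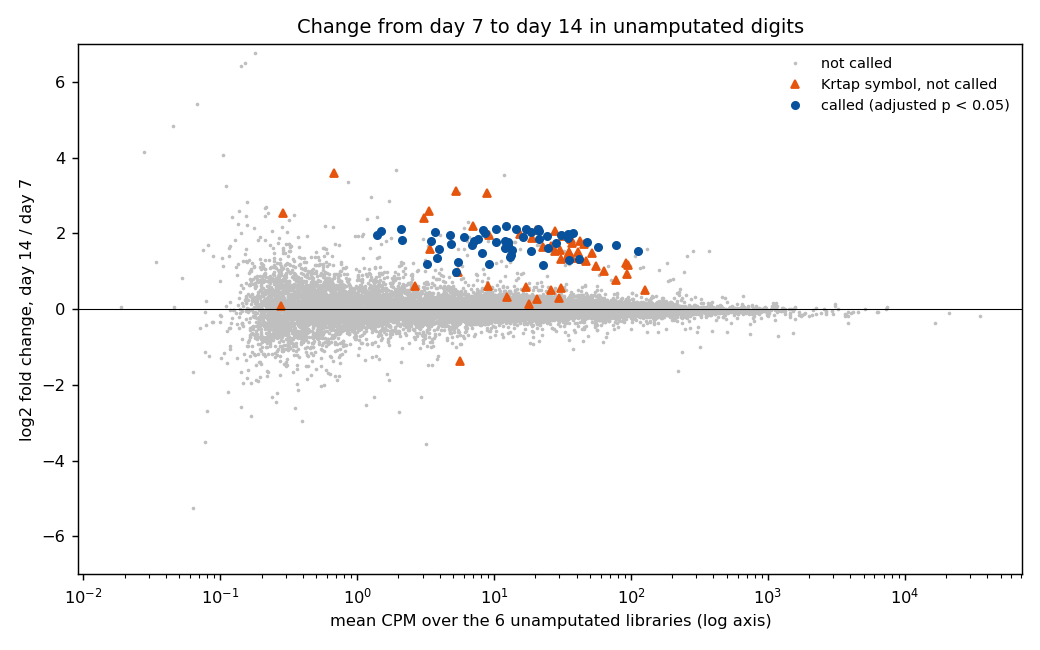
Each point is a gene, by its mean CPM over the 6 unamputated libraries (x, log axis) and its log2 fold change from day 7 to day 14 (y). The 53 called genes (blue) all lie above 0, most of the Krtap genes that were not called (orange triangles) lie above 0 with them, and 5 genes beyond 7 log2 units are not drawn.

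The libraries were of similar depth, with total counts between 32239379 and 38439425 in unamputated and between 31274245 and 43315729 in amputated digits. Basal keratins (Krt5, 4297 to 4890 CPM) and bone Bglap (6.04 to 45.6 CPM) were present in every unamputated library, while muscle transcripts were almost absent (8 tested genes summing to between 3.57 and 6.18 CPM). Of 4 Y-linked genes, none reached more than 1 count in any library. Day 7 replicate 3 stood apart on the first principal component of the 6 unamputated libraries (26.0% of their variance), with more Ccl17, Retnla and Fosb RNA than its fellows.

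The 3 called keratins belong to the cuticle of the hair shaft. Krt82 (ENSMUSG00000049548), the type II keratin of the cuticle, was at 48.6, 43.0 and 58.8 CPM in day 14 replicates 1, 2 and 3 and at 16.9, 19.2 and 25.3 CPM in day 7 replicates 1, 2 and 3. Every day 14 library was well above every day 7 library. It rose 2.45-fold (log2 fold change 1.29 ± 0.17 SE, 95% interval 0.93 to 1.66, adjusted p = 0.0231 by edgeR). Krt32 (ENSMUSG00000046095), a type I cuticle keratin, was at 62.6, 44.9 and 70.5 CPM at day 14 and at 20.4, 21.9 and 28.5 CPM at day 7. Its groups did not overlap either, and replicate 2 was the lowest of the day 14 libraries. It rose 2.51-fold (log2 1.33 ± 0.20, adjusted p = 0.0313 by edgeR). Krt40 (ENSMUSG00000059169), a type I keratin made late in the cuticle, was at 10.7, 8.63 and 13.7 CPM at day 14 and at 2.99, 2.43 and 4.10 CPM at day 7. This was a rise of 3.48-fold (log2 1.80 ± 0.27, adjusted p = 0.0313 by edgeR) with no overlap.

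Since these 3 keratins and the Krtap gene Krtap16-1 (ENSMUSG00000078253) rose together, the 250 bases before their start sites are shown. They come from RefSeq on build GRCm38.p6, 5′ to 3′ on the strand of the gene, at chr15:101550660-101550909 (minus strand) for Krt82, chr11:100088270-100088519 (minus) for Krt32, chr11:99543221-99543470 (minus) for Krt40 and chr11:99986594-99986843 (minus) for Krtap16-1. Capitals mark matches to 3 strings searched on both strands, which do not overlap each other. The string TATAAA is the core of the box that sets the start of many strongly regulated genes. The string CTTTGAA and its close relative with the letters CTTTGTT are cores read by factors of the LEF1 and TCF family.
Krt82: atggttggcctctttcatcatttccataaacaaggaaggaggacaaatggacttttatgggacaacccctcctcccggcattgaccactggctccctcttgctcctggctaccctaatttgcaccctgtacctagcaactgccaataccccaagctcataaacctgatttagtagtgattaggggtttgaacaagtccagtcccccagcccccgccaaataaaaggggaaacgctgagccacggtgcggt
Krt32: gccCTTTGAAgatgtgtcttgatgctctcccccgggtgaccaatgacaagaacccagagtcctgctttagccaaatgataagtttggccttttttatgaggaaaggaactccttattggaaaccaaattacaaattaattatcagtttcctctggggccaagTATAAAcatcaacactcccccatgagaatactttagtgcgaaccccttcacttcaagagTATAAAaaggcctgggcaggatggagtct
Krt40: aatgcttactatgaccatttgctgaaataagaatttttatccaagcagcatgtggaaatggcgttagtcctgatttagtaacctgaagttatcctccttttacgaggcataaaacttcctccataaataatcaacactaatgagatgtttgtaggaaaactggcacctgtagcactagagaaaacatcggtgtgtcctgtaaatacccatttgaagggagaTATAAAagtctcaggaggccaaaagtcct
Krtap16-1: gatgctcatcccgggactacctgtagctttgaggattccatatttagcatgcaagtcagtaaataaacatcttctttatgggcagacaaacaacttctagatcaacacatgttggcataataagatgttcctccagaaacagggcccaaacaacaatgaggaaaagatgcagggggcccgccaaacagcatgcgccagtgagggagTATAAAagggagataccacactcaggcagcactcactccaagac

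The string TATAAA began 29 bases before the start in Krt32 and Krt40 and 44 bases before it in Krtap16-1. Krt32 held it once more, 88 bases before the start, and the string CTTTGAA 247 bases before it. Krt82 held none of the 3 strings in this window. The windows of the called genes Vsig8 and Padi3, searched in the same way and not shown, held none of them either. RefSeq gave windows for 36 of the called genes (40 windows, some genes having more than 1 start). TATAAA was found in 52.5% of them, against 7.72% of the 15825 windows of tested genes and 12.4% of all 32851 windows. CTTTGAA was found in 7.5% against 3.39%, and CTTTGTT in 10.0% against 3.63%, of called and tested windows. Many called genes are related copies, so these windows share ancestry, and a match is a description of letters and not a shown binding site.

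Keratin-associated protein genes had positive fold changes, like the cuticle keratins, in almost the whole family. Of 57 tested genes with a Krtap symbol, 56 had a positive fold change (47.7% of all genes had one), 43 had an unadjusted p under 0.05 (3.22% of all genes had one with a rise) and 7 were called (12.3%, against 0.303% of all genes). Their median log2 fold change was 1.52, beside -0.01 over all genes tested. A list of 20 of these genes, used for the plot of gene lists, was positive in 20 with 1 called (median 1.24). The summed level of the 57 was 2793, 1703 and 3100 CPM in the day 14 libraries and 1047, 629 and 1517 CPM in the day 7 libraries. Every day 14 sum was above every day 7 sum, though day 14 replicate 2 and day 7 replicate 3 lay close together. The Krtap list and the keratin groups were chosen with earlier results of these libraries known, so their counts describe the family and are no independent evidence of it.

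Krtap16-1 was at 127, 89.6 and 137 CPM at day 14 and at 40.0, 24.4 and 45.6 CPM at day 7. The lowest day 14 library was about as far above the highest day 7 library as the day 14 libraries were apart from each other. It rose 3.21-fold (log2 1.68 ± 0.27, adjusted p = 0.0400 by edgeR). Krtap5-5, of the cysteine-rich ultrahigh-sulfur kind, was at 50.2, 37.3 and 59.5 CPM at day 14 and at 14.1, 8.44 and 15.7 CPM at day 7, and rose 3.85-fold (log2 1.94 ± 0.31, adjusted p = 0.0400 by edgeR). Its groups were far apart. The rise of Krtap29-1 was the steepest among called Krtap genes, from 0.702, 0.459 and 0.549 CPM at day 7 to 2.31, 1.99 and 2.91 CPM at day 14 (log2 2.07 ± 0.32). Krtap24-1 (log2 1.55), Krtap17-1 (1.65), Krtap10-10 (1.78) and Krtap4-13 (1.43) were the other called members, all with no overlap between days.

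**Figure D2:**
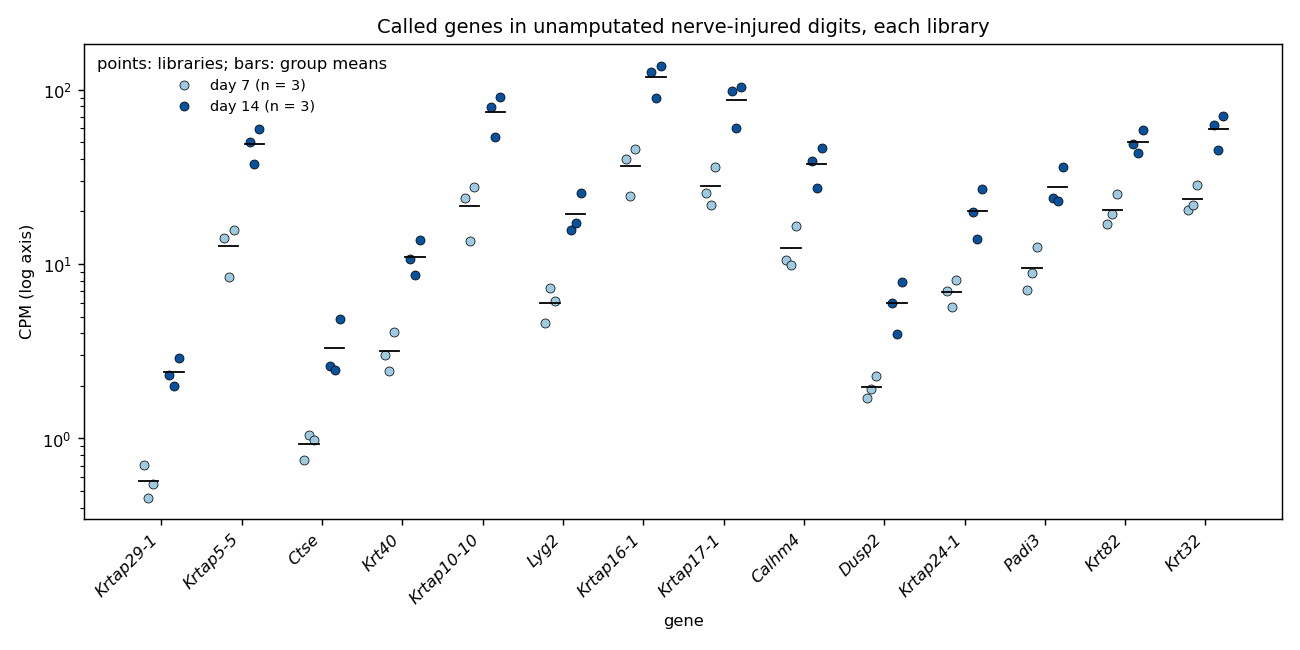
CPM (y, log axis) of called genes in each unamputated library (points; light and dark colours for the 2 days as in the key, 3 libraries a day) with the group mean (bar). For every gene drawn the day 14 points lie above the day 7 points.

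The kinds of Krtap gene differed in their values, though no test compared the kinds. Of 17 tested ultrahigh-sulfur genes (families 4, 5, 9 and 17), 17 were positive, 16 showed no overlap and 3 were called, with a median log2 fold change of 1.54. Of 15 tested high glycine-tyrosine genes (families 6, 7, 8, 19, 20, 21 and 22), 14 were positive, 0 showed no overlap and 0 were called, with a median of 0.57 (0.32 without day 7 replicate 2, 1.06 without day 7 replicate 3). Among these 15 genes, 4 had an unadjusted p under 0.05 with a rise (3.22% of all genes). Of the 25 tested genes of other families, 25 were positive, 17 showed no overlap and 4 were called, with a median of 1.56. Over all genes tested, 47.7% were positive, 5.59% showed no overlap with day 14 above, and 0.303% were called.

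The spread of the glycine-tyrosine genes followed single libraries. Krtap6-1, one of them, was at 23.8, 10.2 and 22.5 CPM at day 14 and at 14.8, 8.85 and 28.1 CPM at day 7. Its highest value was in a day 7 library and its groups overlapped (log2 0.13 ± 0.46, not called). Krtap8-1 was at 113, 60.7 and 118 CPM at day 14 and at 62.5, 31.0 and 77.8 CPM at day 7, so that day 14 replicate 2 lay below 2 of the 3 day 7 libraries (log2 0.77 ± 0.42, not called). Over this kind the mean log2 CPM (prior count 2) was 3.35, 1.40 and 3.55 at day 14 and 2.19, 1.25 and 2.82 at day 7. Replicate 2 was the lowest library on both days. Krtap6-3 had the one negative value of the family (log2 -1.37 ± 0.78, not called).

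Replicate 2 was also low in most called genes. Day 14 replicate 2 was the lowest of its day in 49 of the 53 and day 7 replicate 2 in 44, while day 14 replicate 3 was the highest of its day in 41 and day 7 replicate 3 in 40. Replicates 2 and 3 thus ranked alike on both days in most called genes, although same-numbered libraries did not deviate together over all genes. Without day 7 replicate 2 the median of the Krtap genes was 1.29 and without day 7 replicate 3 it was 1.85.

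The 27 called gene models beside Krtap genes were 27 of 68 such models tested (39.7%), and 64 of the 68 were positive, with a median log2 fold change of 1.71. In GENCODE M21, called Krtap genes and models together lay on chromosome 10 (14 genes), chromosome 7 (9), chromosome 1 (6), chromosome 11 (4) and chromosome 16 (1). These models share much of their sequence. Over the 27, a median of 31.4% of the stretches of 50 bases in their transcripts also occurred in another gene, and 8 of them shared at least 50%. The counting method is not given in the sources used here, so reads may have been split between such copies and the values of single models are uncertain. Krt82, Krt32 and Krt40 shared no stretch of 50 bases with another gene, nor did Krtap16-1, Krtap17-1, Krtap24-1 and Krtap29-1, while Krtap4-13 shared 81.3%, Krtap10-10 44.1% and Krtap5-5 28.4%. Outside these families, the called gene Pla2g4b shared 64.2%, so its value is uncertain too.

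The rest of the hard keratins were uneven. A list of hard keratins with 2 inner root sheath keratins (Krt71 and Krt73) and regulators was positive in 16 of 16 with 2 called (median log2 fold change 0.78). Among all genes tested, 47.7% were positive and 0.303% were called. Of 9 tested type I hard keratins 9 were positive and 2 were called (median log2 1.11), and of 6 type II hard keratins 6 were positive and 1 was called (median 0.78). Krt33a, a type I keratin of the hair cortex, was at 172, 97.6 and 195 CPM at day 14 and at 59.1, 31.2 and 86.7 CPM at day 7. The groups did not overlap but the gene was not called (log2 1.39 ± 0.41, adjusted p = 0.555 by edgeR). Krt86, a type II cortex keratin, was at 225, 154 and 267 CPM at day 14 and at 102, 62.5 and 154 CPM at day 7 (log2 1.02 ± 0.34, not called). Its lowest day 14 library and highest day 7 library were almost level. Krt31 (log2 0.27 ± 0.20), Krt35 (0.29 ± 0.17) and Krt87 (0.30 ± 0.21) differed little and were not called. Krt36 was at 350, 473 and 479 CPM at day 14 and at 323, 499 and 479 CPM at day 7, with a log2 fold change of 0.00 ± 0.22. Krt84 gave 0.08 ± 0.30, and in both genes the groups overlapped fully.

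Keratins of the inner root sheath, the layer that moulds the growing hair, had positive values in all 8 genes tested and no overlap in 8, but 0 were called. All 8 had an unadjusted p under 0.05, and their median log2 fold change was 1.47. Over all genes tested, 5.59% had no overlap with day 14 above, 0.303% were called, and 3.22% had such a p with a rise. Krt71, which pairs with type I partners in this sheath, was at 492, 468 and 695 CPM at day 14 and at 81.6, 196 and 292 CPM at day 7. The day 7 libraries spread over a wide range, and all 3 lay below day 14 (log2 1.54 ± 0.41, adjusted p = 0.410 by edgeR). Krt72 was at 22.0, 16.2 and 30.6 CPM at day 14 and at 4.68, 7.20 and 11.2 CPM at day 7 (log2 1.58 ± 0.32, adjusted p = 0.0867 by edgeR). Krt75, the keratin of the companion layer outside the sheath, was at 76.4, 64.1 and 88.5 CPM at day 14 and at 36.1, 42.3 and 44.6 CPM at day 7. It was just outside the threshold (log2 0.90 ± 0.17, adjusted p = 0.0508 by edgeR). The summed level of the 8 sheath keratins was 1209, 1051 and 1632 CPM at day 14 and 235, 462 and 716 CPM at day 7.

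**Figure D3:**
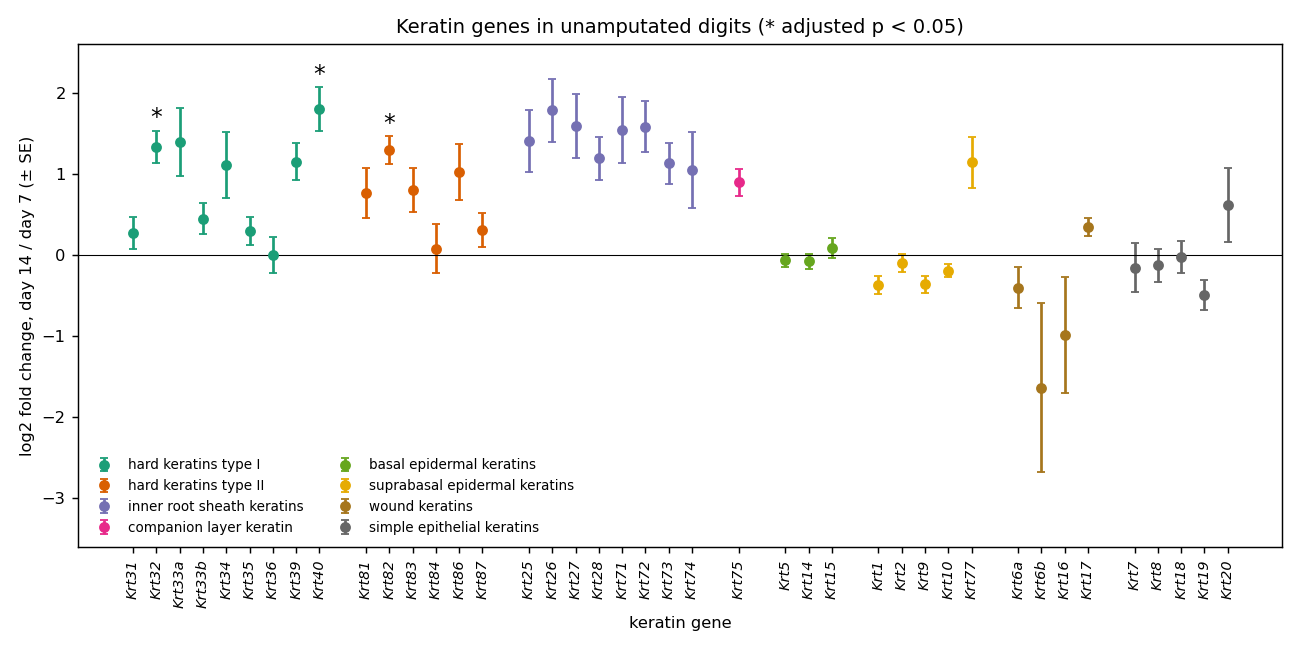
Log2 fold change from day 7 to day 14 (y, points with SE as bars) of keratin genes in unamputated digits, grouped by where they are made. The called keratins carry a star, the inner root sheath keratins all lie above 0, and basal Krt5 and Krt14 lie near 0.

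Keratins of the epidermis between follicles had other values. Of 5 keratins of the layers above the basal one, 4 were negative, as were 52.3% of all genes tested. The other, Krt77, a type II keratin, was at 11.6, 27.2 and 12.0 CPM at day 14 and at 8.17, 7.44 and 7.37 CPM at day 7. Its day 14 libraries were all higher, replicate 2 by far the most, and it was not called (log2 1.14 ± 0.31, adjusted p = 0.380 by edgeR). Krt5 and Krt14, the keratins of the basal layer, gave log2 fold changes of -0.07 ± 0.08 and -0.08 ± 0.09, with overlap. Krt1, the type II keratin of the layers above, was at 14349, 14548 and 14418 CPM at day 14 and at 17332, 17649 and 21055 CPM at day 7. All day 14 libraries were below day 7, and the gene was not called (log2 -0.37 ± 0.11, adjusted p = 0.495 by edgeR). Krt9, the keratin of the sole and pads, and Krt10 also had day 14 below day 7 without overlap (-0.36 ± 0.10 and -0.20 ± 0.08), a pattern seen in 5.3% of all genes, and were not called. Of 4 tested keratins of wounded and stressed skin, 3 were negative and 0 were called. The positive one (log2 0.34) was the only one with an unadjusted p under 0.05 by edgeR. It had all day 14 libraries above day 7, a pattern seen in 5.59% of all genes. Krt6b, the most negative, was at 52.7, 203 and 63.2 CPM at day 14 and at 135, 396 and 462 CPM at day 7 (log2 -1.64 ± 1.04, not called). Its groups overlapped, with day 14 replicate 2 above day 7 replicate 1.

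Genes that accompany hair growth gave 1 call. Of 18 tested genes of that list 16 were positive and Padi3 was called, with a median log2 fold change of 0.25. Among all genes tested, 47.7% were positive and 0.303% were called. Padi3, which converts arginine to citrulline in trichohyalin, was at 23.9, 23.1 and 36.0 CPM at day 14 and at 7.13, 8.90 and 12.6 CPM at day 7. It rose 2.91-fold (log2 1.54 ± 0.26, adjusted p = 0.0410 by edgeR) with no overlap. Its substrate Tchh, trichohyalin, was at 340, 369 and 544 CPM at day 14 and at 70.7, 150 and 214 CPM at day 7 (log2 1.53 ± 0.37, adjusted p = 0.310 by edgeR). Lgr5, a marker of follicle stem and progenitor cells, gave 0.49 ± 0.13 and Msx2, a homeobox factor of the hair matrix, 0.48 ± 0.16, both not called. The factors Hoxc13 (0.20 ± 0.13), Foxn1 (0.11 ± 0.14) and Lef1 (0.24 ± 0.19), which drive hair keratin genes, were not called and their groups overlapped.

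Called genes outside the keratin families included enzymes, membrane proteins and transcription factors. Lyg2, a g-type lysozyme, was at 15.7, 17.2 and 25.5 CPM at day 14 and at 4.58, 7.28 and 6.16 CPM at day 7. It rose 3.24-fold (log2 1.70 ± 0.22, adjusted p = 0.0231 by edgeR). Vsig8, an immunoglobulin-domain membrane protein, was at 170.2, 129.8 and 206 CPM at day 14 and at 57.2, 47.6 and 69.9 CPM at day 7 (log2 1.53 ± 0.22, adjusted p = 0.0313 by edgeR). In both genes the lowest day 14 library was well above the highest day 7 library. Calhm4, of a family of membrane channel proteins, was at 39.0, 27.1 and 46.2 CPM at day 14 and at 10.6, 9.87 and 16.5 CPM at day 7 (log2 1.60 ± 0.25). Ctse, the aspartic protease cathepsin E, was at 2.61, 2.47 and 4.81 CPM at day 14 and at 0.754, 1.05 and 0.983 CPM at day 7 (log2 1.83 ± 0.31). Day 14 replicate 3 was far above the other day 14 libraries for Ctse. Dusp2, a phosphatase of MAP kinases, was at 5.97, 3.98 and 7.88 CPM at day 14 and at 1.72, 1.92 and 2.28 CPM at day 7 (log2 1.59 ± 0.30). Crym, which binds thyroid hormone (log2 1.49), Elf5, an ETS factor of epithelia (1.19), Bhlha9, a basic helix-loop-helix factor (1.24), and Pla2g4b, a phospholipase (0.98), were also called.

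Nerve-associated genes, in digits whose nerve had been cut, held 0 called members in 6 lists of Schwann cells, nerve sheath, axons and neurotransmitter receptors. With 0.303% of all genes called, 0 calls in lists of this size tell little about them. Myelin genes were positive in 14 of 19 with a median log2 fold change of 0.09, Schwann identity genes in 7 of 12 (0.04) and repair response genes in 9 of 17 (0.03). Perineurial and endoneurial genes were positive in 9 of 13 (0.03), axon and sensory neuron transcripts in 2 of 6 tested (-0.14) and receptors in 7 of 14 (-0.03). The axon list had 15 genes, and those not tested had too few counts to pass the filter. In these lists 1 myelin and 1 repair gene had an unadjusted p under 0.05 with a positive value (3.22% of all genes), and 1 axon gene with a negative value (1.75%). All day 14 libraries lay above day 7 in 4 myelin, 2 repair and 2 receptor genes (5.59% of all genes). They lay below in 1 myelin and 1 axon gene (5.3% of all genes). Mbp, a main protein of myelin, was at 111, 137 and 103 CPM at day 14 and at 106, 105 and 103 CPM at day 7. The groups overlapped, and the 95% interval of the log2 fold change was -0.33 to 0.65.

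A few nerve genes had the smallest p of their list without being called. Pllp, a myelin membrane protein, was at 2.40, 3.52 and 2.91 CPM at day 14 and at 1.48, 1.65 and 2.37 CPM at day 7 (log2 0.69 ± 0.24, adjusted p = 0.707 by edgeR). Its groups were separate by a narrow margin. Fa2h, next in p among the myelin genes, had a negative value (log2 -0.30 ± 0.16) and was not called. Tubb3, the neuronal tubulin, was at 46.2, 47.3 and 51.6 CPM at day 14 and at 67.5, 56.1 and 71.4 CPM at day 7, all day 14 libraries being lower (log2 -0.43 ± 0.13, adjusted p = 0.517 by edgeR). Olig1, of the repair list, gave 0.51 ± 0.23. Cadm4, an adhesion molecule of Schwann cells, gave 0.16 ± 0.12, Apod, an endoneurial lipid carrier, 0.25 ± 0.13, and Ramp1, part of the receptor of the sensory peptide CGRP, 0.31 ± 0.15, none of them called.

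**Figure D4:**
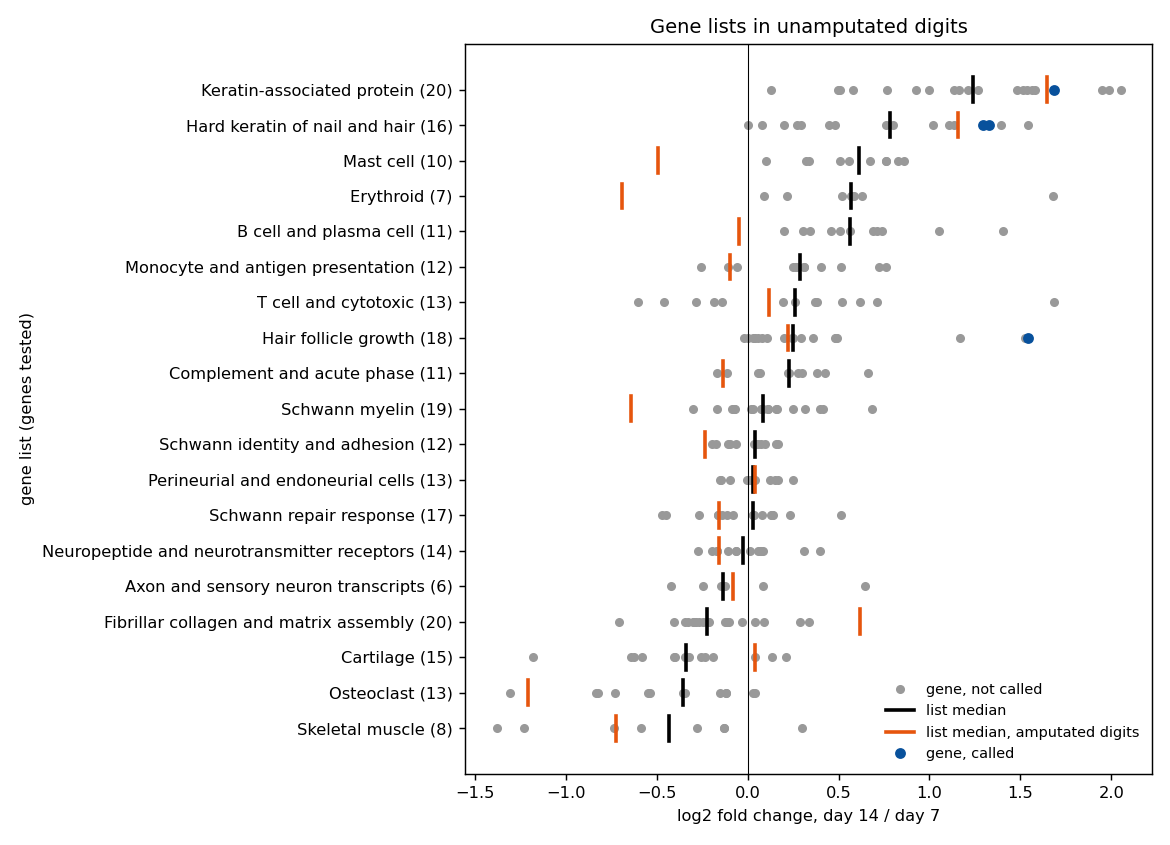
Log2 fold change from day 7 to day 14 (x) of each tested gene (points, called ones blue) in the gene lists named on the y axis with their number of tested genes. Black bars mark list medians in unamputated digits and orange bars those in amputated digits; the keratin and Krtap lists lie to the right and the nerve lists are centred near 0.

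The amputated digits of the same table, which share no library with the unamputated ones, gave the same contrast of days after a wound. There, 106 genes were called between day 7 and day 14 (0.607% of genes tested), 101 higher (0.578%) and 5 lower (0.0286%), and 50 of the 53 genes of the unamputated digits were among them. That overlap was 94.3% of the unamputated and 47.2% of the amputated calls, and all 50 had the same sign. The calls of both changes use 1 shared estimate of the spread. Krt82 was at 69.8, 58.2 and 48.9 CPM in amputated day 14 libraries and at 19.5, 19.7 and 17.4 CPM in amputated day 7 libraries, against 43.0 to 58.8 and 16.9 to 25.3 CPM without amputation. At each day the ranges of amputated and unamputated libraries overlapped. The median log2 fold change of the 53 genes was 2.01 with amputation and 1.79 without, and 41 of the 53 were larger with amputation.

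The difference between the unamputated and the amputated change was tested directly, and 0 genes were called by edgeR (0% of genes tested). An unadjusted p under 0.05 was found for 1092 genes (6.25%), the smallest adjusted p was 0.751, and DESeq2 called 18 genes. Over the 53 genes the difference in log2 fold change, unamputated minus amputated, was between -0.72 and 0.63, with a median of -0.25 and no adjusted p under 0.772. For Krt82 its 95% interval was -0.86 to 0.16 and for Krtap16-1 it was -1.04 to 0.60. These intervals are wide, so that an equal change is not shown.

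Ctse, Dusp2 and Pla2g4b were called without amputation and not with it. Their adjusted p values in amputated digits were 0.0794, 0.119 and 0.423 by edgeR, all with positive values, and the differences between the changes were not called (unadjusted p = 0.255, 0.300 and 0.0281 from the fit over all genes). The 6 genes with the smallest p for the difference were Klk6, Krt1, Spink7, Ece1, Htra4 and Csf2rb2. Klk6, a secreted serine protease, had a log2 fold change of -0.11 ± 0.15 without and 1.12 ± 0.15 with amputation. Krt1 had -0.37 ± 0.11 without and 0.42 ± 0.11 with it. Spink7, a protease inhibitor of epithelia, had -0.24 ± 0.17 and 0.95 ± 0.17, and Htra4, a serine protease, -0.53 ± 0.13 and 0.38 ± 0.13. Ece1, which processes endothelin, had 0.30 ± 0.10 and -0.39 ± 0.10, and Csf2rb2, a cytokine receptor chain, 0.17 ± 0.13 and -0.69 ± 0.13. None of these 6 differences was called.

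Some lists had medians of opposite sign with and without amputation, with no test of that contrast. Mast cell genes had a median of 0.61 without amputation (1.04 without day 7 replicate 2, 0.38 without day 7 replicate 3) and -0.50 with it. Erythroid genes had 0.57 (0.29 without day 14 replicate 2) and -0.69, collagen and matrix assembly genes -0.22 and 0.62, and myelin genes 0.09 and -0.64. The myelin list level (mean log2 CPM) in amputated libraries was 1.85, 1.52 and 1.67 at day 14. At day 7 it was 1.93, 1.64 and 2.87, so that replicate 3 stood apart. For collagen genes it was 8.11, 6.95 and 8.24 at day 14 and 7.76, 6.93 and 6.80 at day 7. Levels of each of these lists overlapped between the days, with and without amputation. The high glycine-tyrosine Krtap genes had a median of 0.57 without and 1.60 with amputation.

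**Figure D5:**
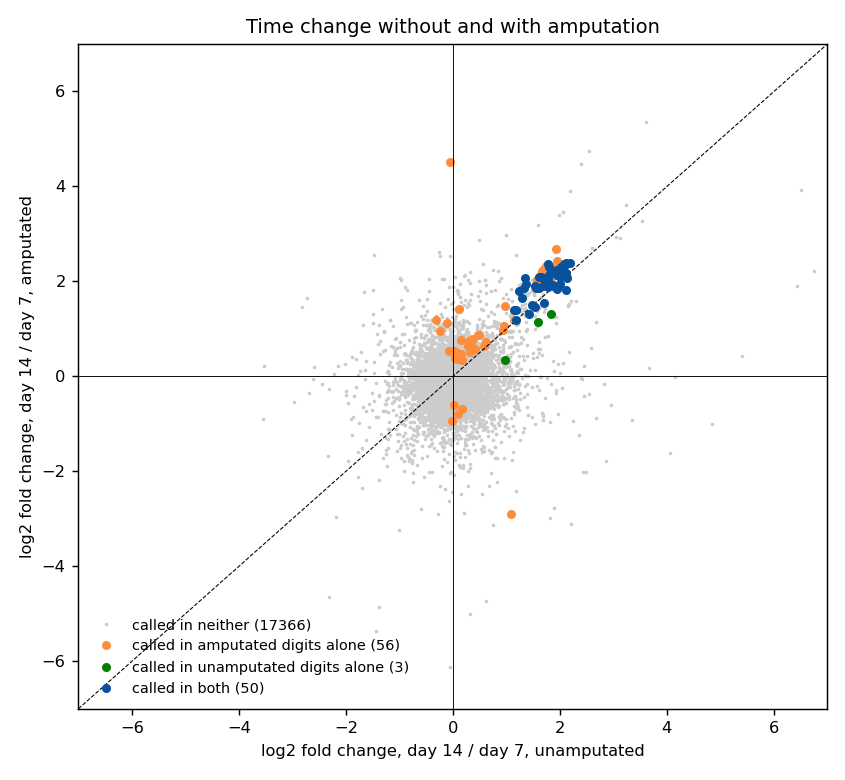
Log2 fold change from day 7 to day 14 in unamputated (x) and amputated (y) digits, each point a gene, with the dashed line marking equal change. The 50 genes called in both lie at the upper right near the line, the 3 called in unamputated digits alone are green, and 10 genes beyond 7 log2 units are not drawn.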

How the data were processed

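The authors deposited raw counts per gene and library for the 12 nerve-injured libraries of the second set, with Ensembl identifiers. Per the labels' protocols, poly(A) libraries were made with a strand-specific kit. The build was GRCm39 per the submitters' processing notes; how reads were aligned and counted is not given in the sources used here. GENCODE M21 gave names (55141 of 55487 identifiers, 99.4%), gene neighbours (within 10 protein-coding genes) and transcripts for shared stretches of 50 bases. RefSeq gave the promoters. The table of the amputated sham and SNI time course was not used here.

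Groups came from the titles. Genes were kept by filterByExpr (minimum count 10, minimum total 15), scaled by TMM and fitted with the robust quasi-likelihood model of edgeR, 1 mean per group over 4 groups of 3. Kept genes held at least 99.9% of each library's counts. Contrasts were day 14 minus day 7 without amputation, the same with amputation, and their difference, each adjusted by Benjamini-Hochberg over 17475 genes and called under 0.05. The scripts were tested on simulated data. CPM uses TMM-scaled library sizes, and p-values measure the spread between these libraries.

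Named genes were the 12 largest rises and falls among called genes with an official symbol, a mean CPM of at least 1 and no overlap, and the 6 with the smallest p for the difference. From the described lists, some of the 4 or fewer members of lowest p were named and others of them were not. Lists were described when they held at least 2 called members or a median at least 0.2 from that of all genes, and nerve lists always; the clock list was described outside this rule, after its values were seen. Other genes named for what they are known to do (further keratins, Krtap and marker genes, Vsig8 and other called genes) and the grouping of keratins and Krtap genes into kinds were chosen after their values were seen. All members and lists were chosen with earlier results of these data known.

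Alternatives were RLE factors, no filter, DESeq2, the compared groups alone, a replicate block, a fold of at least 1.5, and each library left out. Where 2 libraries of a group remained, the spread was still pooled over the 4 groups. Whether the replicate numbers pair the samples is not known. Deviations from group means of same-numbered unamputated libraries correlated between -0.05 and 0.02 across genes, which cannot exclude pairing in a smaller set of genes. Replicates 2 and 3 ranked alike on both days in most called genes, and more genes were called with the replicate block. The work used edgeR 4.0.16 and DESeq2 1.42.0, with limma 3.58.1, under R 4.3.3.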

Additional observations from a re-analysis of the deposited data

How the results depend on the processing

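All 53 genes called without amputation stayed positive with an unadjusted p under 0.05 in every alternative run, while the number of calls varied. It was 38 with RLE factors, 21 with no filter on low counts (19 of them among the 53), 149 with DESeq2 (53 shared), 6 when the compared groups were fitted alone and 53 with a fold of at least 1.5. Leaving out 1 library at a time gave between 0 and 70 calls. With the replicate block 79 genes were called (50 shared with the 53), against 110 for the amputated change and 0 for the difference. For the amputated change, DESeq2 called 473 genes, the groups fitted alone 70, and leaving out 1 library gave between 3 (without amputated day 7 replicate 2) and 138, with 17 without amputated day 7 replicate 3. For the difference, DESeq2 called 18 and every other alternative 0; its fit on the compared groups alone is the same fit and was not repeated. No called gene changed sign, which the lack of overlap between their groups made all but certain. Of the 94 genes followed across alternatives, 5 uncalled ones changed sign when 1 library was left out. Their log2 fold changes ran from -0.30 to 0.010 for Slc2a1, from -1.79 to 0.78 for Atp6v0d2 and from -1.70 to 0.23 for Oscar, positive without unamputated day 7 replicate 3; from -0.38 to 0.00158 for Etv1, positive without unamputated day 14 replicate 2; and from -0.44 to 0.00443 for Chrm3, positive without unamputated day 7 replicate 2. The cause of these changes was not tested. With 3 libraries a group and adjusted p values near 0.05, the list of calls is uncertain. The kept direction of its genes is no separate support, since they were picked from these same libraries. Uncalled genes with wide intervals could have changed.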

Other observations

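Outside skin appendages, the lists held no called genes in unamputated digits, the nerve lists included. Of 53 lists of genes, 3 held a called member (hard keratins, Krtap and hair growth), and 50 held 0, with medians between -0.43 (skeletal muscle) and 0.61 (mast cell). Only 0.303% of all genes were called, so 0 calls in a short list tell little. Mast cell genes were positive in 10 of 10. Mcpt4, a mast cell protease, was at 33.3, 25.3 and 35.8 CPM at day 14 and at 14.9, 26.7 and 10.4 CPM at day 7, where 1 day 7 library lay among the day 14 ones (log2 0.86 ± 0.40, not called). Erythroid genes were positive in 7 of 7 with a median of 0.57, and their summed level was 121, 207 and 156 CPM at day 14 and 84.2, 102 and 142 CPM at day 7. Slc4a1, the band 3 anion exchanger of red cells, was at 0.923, 0.824 and 1.60 CPM at day 14 and at 0.390, 0.162 and 0.491 CPM at day 7 (log2 1.68 ± 0.42, adjusted p = 0.239 by edgeR). B cell genes were positive in 11 of 11 (median 0.56), T cell genes in 8 of 13 (0.26), monocyte and antigen presentation genes in 9 of 12 (0.29) and complement genes in 9 of 11 (0.22), with 0 called in each. These medians moved with single libraries. The T cell median was -0.06 without day 14 replicate 1 and 0.58 without day 7 replicate 3, the B cell median was 0.27 without day 14 replicate 1 and 0.84 without day 14 replicate 3, and the monocyte median was 0.17 without day 7 replicate 1 and 0.56 without day 7 replicate 3.

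Negative values prevailed in lists of cartilage, matrix assembly and osteoclast genes, but not in those of osteoblasts and osteocytes (11 of 17 positive, median 0.04) or tendon and ligament (6 of 12 positive, median -0.10). They also prevailed in skeletal muscle (7 of 8), macrophage (14 of 17) and mitochondrial respiratory chain genes (13 of 13), among other lists. Sweat gland and sebaceous gland genes were negative in 10 of 13 each, beside 52.3% of all genes tested. Cartilage genes were negative in 12 of 15 (median -0.34, and -0.14 without day 7 replicate 2), collagen and matrix assembly genes in 16 of 20 (-0.22) and osteoclast genes in 11 of 13 (-0.36), again with 0 called. Prg4, lubricin of joint surfaces, was at 1275, 1124 and 1218 CPM at day 14 and at 2059, 1515 and 2007 CPM at day 7, with no overlap (log2 -0.63 ± 0.15, adjusted p = 0.208 by edgeR, and 0.0122 by DESeq2). Fn1, fibronectin, was at 835, 876 and 970 CPM at day 14 and at 1409, 1220 and 1750 CPM at day 7 (log2 -0.71 ± 0.23, not called). The osteoclast median rested on 1 library: Atp6v0d2, a proton pump subunit, was at 5.23 CPM in day 7 replicate 3 and between 0.442 and 0.870 CPM in the other 5, and without that library the list median was 0.15.

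Genes of the circadian clock had 4 of 18 members with a negative value and an unadjusted p under 0.05 (1.75% of all genes). There were 2 with a positive value and such a p (3.22% of all genes) and 0 called. Dbp, an output factor of the clock, was at 26.0, 27.5 and 19.9 CPM at day 14 and at 65.5, 58.1 and 29.6 CPM at day 7 (log2 -1.06 ± 0.27, adjusted p = 0.317 by edgeR). Nr1d1, Nr1d2 and Ciart also had all day 14 libraries below day 7, a pattern seen in 5.3% of all genes. In 1 clock gene all day 14 libraries lay above day 7 (5.59% of all genes). The hour of collection is not among the labels used here, and its part in these values was not tested.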
